A study of Mus musculus with 10 samples.

Results

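Bone morphogenetic proteins (BMPs) are secreted ligands of the TGF-beta superfamily, and 10 genes of their signalling system were followed here in the developing mouse outer ear: the ligands *Bmp2*, *Bmp4*, *Bmp5*, *Bmp6* and *Bmp7*, the secreted antagonists or modulators *Nog*, *Grem1* and *Bmper*, and the targets *Id1* and *Smad6*. They were chosen by name, with earlier results of these data known, and all 10 were found among the 53465 genes of the count table. Bulk RNA-seq was performed on micro-dissected pinna prominences, the tissue swelling that forms the external ear, at E14.5, a stage of mid-gestation. WT embryos (n = 5) were compared with mEC1dup/dup embryos (n = 5), a knock-in line in which each allele carries an additional copy of the enhancer mEC1 near *Hmx1*, on the C57BL/6 J background. The line was made by CRISPR/Cas9 editing, every cell of the embryo carries the duplication, and each library was described as an independent embryo. The comparison asks whether transcripts of BMP signalling differ when this enhancer is duplicated.

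BMP ligands bind pairs of type I and type II receptor kinases, which phosphorylate SMAD1, SMAD5 and SMAD9. These enter the nucleus with SMAD4 and activate targets such as the *Id* genes and the inhibitory SMADs, while secreted antagonists trap the ligands outside the cell. *Bmp5* is the gene mutated in the classical short ear mouse, and BMP5 is known for its part in the mesenchymal condensations from which ear cartilage and other skeletal elements form.

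Total counts ranged from 17461544 to 18462073 per library. *Hmx1*, the gene regulated by mEC1, checked the labels: it lay between 21.7 and 29.1 CPM (counts scaled to library size by TMM) in WT and between 52.8 and 77.5 CPM in mEC1dup/dup. The libraries also differed in the sex of their cells. *Xist*, the transcript of the inactive X chromosome in female cells, was at most 0.277 CPM in the WT libraries and at 732, 1049, 986, 113 and 0 CPM in mEC1dup/dup replicates 1 to 5. The summed level of the Y-linked genes *Ddx3y*, *Uty*, *Kdm5d* and *Eif2s3y* was 171 to 202 CPM in WT and 36.5, 1.98, 1.68, 163 and 178 CPM in mEC1dup/dup replicates 1 to 5, so that mEC1dup/dup replicates 1 and 4 held both kinds of transcript although each was described as an individual embryo. WT replicate 4 stood apart in its summed mesenchymal markers (5774 CPM, against 7392 to 9505 CPM in the other WT libraries). Embryonic globins made up 18.4% to 23.3% of globin counts in WT and 32.5% to 35.6% in mEC1dup/dup, with no overlap between the groups. This difference cannot be told apart from genotype here, and its part in the values of the BMP genes was not tested.

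None of the 10 BMP genes was called different between mEC1dup/dup and WT by edgeR's quasi-likelihood test. Genes were called at an adjusted p (Benjamini-Hochberg, over the 16426 genes past the filter on low counts, all 10 among them) no higher than 0.05 where their average log2 CPM also reached 1. Over all tested genes, 2.64% were called, 1.81% lower and 0.834% higher. At an unadjusted p under 0.05, 4 of the 10 genes were higher in mEC1dup/dup (*Bmp4*, *Nog*, *Bmper* and *Smad6*) and 0 were lower, against 7.1% higher and 9.08% lower (16.2% in either direction) over all tested genes. The 10 genes were chosen with earlier results of these data known. Of their 45 pairs, 36 had a Pearson's r above 0 by deviations of log2 CPM from the genotype means. The share is thus a description, not a test of the set. DESeq2 called 1 of the 10 (*Bmper*), where it called 5.05% of all tested genes, and limma-voom called 0. With the replicate number as a block, edgeR also called *Bmper*, with 487 lower and 200 higher calls over all tested genes. The differences were small: log2 fold changes ran from -0.13 (*Bmp5*) to 0.23 (*Nog*), with a median of 0.14 against -0.0041 over all tested genes, and for all 10 genes the 95% interval lay within a 1.5-fold change in either direction. In all 10 genes the WT and mEC1dup/dup libraries overlapped, where 5.07% of all tested genes had groups that did not (2.75% with mEC1dup/dup lower, 2.33% with it higher). In whole tissue, fewer cells of a type and less RNA per cell cannot be told apart.

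**Figure D1:**
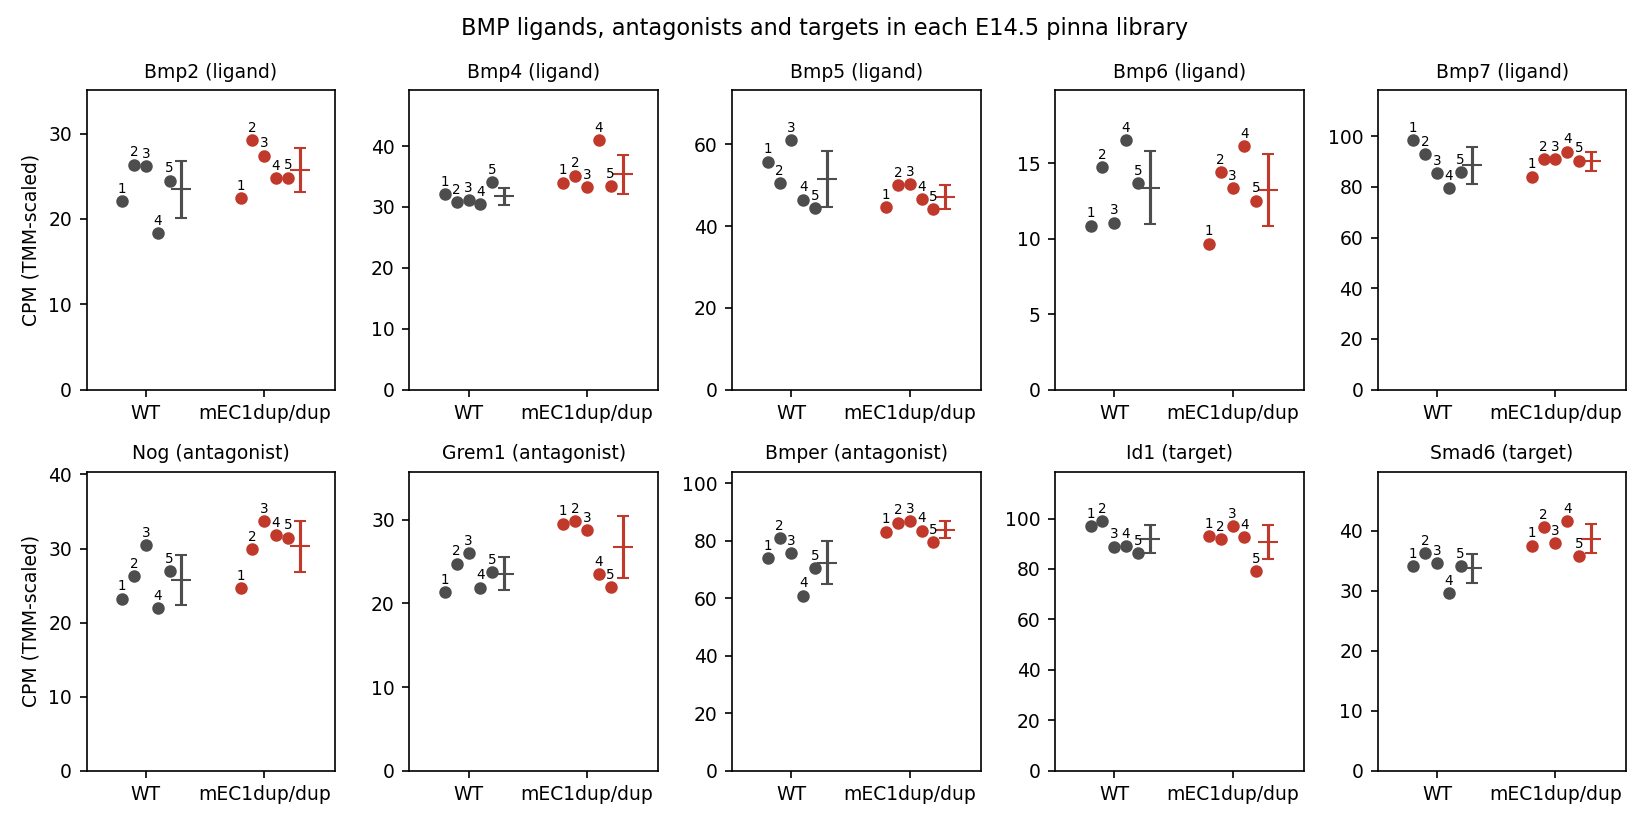
Level of each of the 10 genes (y axis, CPM after TMM scaling, starting at 0) in every WT and mEC1dup/dup library, with points numbered by replicate and the mean and SD (n = 5) at the right of each group. The groups overlap in each panel, *Bmper* and *Smad6* show 4 of 5 mEC1dup/dup libraries above the highest WT library, and *Grem1* is high in mEC1dup/dup replicates 1 to 3 only.

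Among the ligands, *Bmp5* (ENSMUSG00000032179, GRCm39 chromosome 9 from 75682638 to 75807592, plus strand) had the lowest fold change. Counts of 966, 912, 1087, 839 and 801 were found for WT replicates 1 to 5, against 781, 908, 925, 864 and 816 for mEC1dup/dup replicates 1 to 5, or 51.6 ± 6.82 CPM (SD, n = 5) and 47.1 ± 2.89 CPM (SD, n = 5). All 5 mEC1dup/dup libraries lay below the WT mean, but the WT libraries themselves ran from 44.4 to 61.0 CPM, and WT replicates 1 and 3 set the upper end. The log2 fold change was -0.13 (standard error, SE, 0.08, 95% interval -0.31 to 0.05, edgeR adjusted p = 0.48), which spans a decrease of 19.2% to an increase of 3.18%. It was -0.07 without WT replicate 3, the highest library. With *Xist* as a covariate it was -0.22 (SE 0.13, edgeR adjusted p = 0.647). In the libraries without *Xist*, that is, mEC1dup/dup replicate 5 against WT (a setting chosen after seeing the data), it was -0.22. These are not separate checks: with *Xist* entered as log2 CPM, both rest largely on mEC1dup/dup replicate 5. That library had the lowest level of *Bmp5* (44.2 CPM). An antisense gene, *Gm26903*, overlaps 46.6% of the exonic bases of *Bmp5* and had 20 counts over all libraries. The use of strand in the counting is not given, so this count does not show whether *Bmp5* lost reads in the shared bases.

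*Bmp4* (ENSMUSG00000021835, chromosome 14 from 46620250 to 46636745, minus strand), a ligand of many epithelial and mesenchymal tissues, had 32.1, 30.8, 31.1, 30.5 and 34.1 CPM in WT replicates 1 to 5 and 34.0, 35.2, 33.2, 40.9 and 33.5 CPM in mEC1dup/dup replicates 1 to 5. All mEC1dup/dup libraries lay above the WT mean, with replicate 4 above the rest and WT replicate 5 within their range. Its log2 fold change was 0.16 (SE 0.06, 95% interval 0.02 to 0.29, edgeR adjusted p = 0.24), and without mEC1dup/dup replicate 4 it was 0.10. With *Xist* as a covariate it was 0.14, and in the libraries without *Xist* 0.08 (SE 0.09). *Bmp2* (ENSMUSG00000027358, chromosome 2), the close paralog of *Bmp4*, had 23.5 ± 3.35 CPM in WT and 25.8 ± 2.61 CPM in mEC1dup/dup (SD, n = 5 each). The log2 difference was 0.13 (SE 0.10, edgeR adjusted p = 0.571), and it was 0.05 without WT replicate 4, the lowest library, and 0.07 with *Xist* as a covariate. For this gene the interval ran from -0.08 to 0.35.

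The nearest relatives of *Bmp5* among the ligands, *Bmp6* and *Bmp7*, differed between genotypes by less than the spread between replicates. *Bmp7* (ENSMUSG00000008999, chromosome 2) had 88.5 ± 7.29 CPM in WT and 90.1 ± 3.64 CPM in mEC1dup/dup (SD, n = 5 each). Its log2 fold change was 0.03, with the narrowest interval of the ligands (-0.09 to 0.14). *Bmp6* (ENSMUSG00000039004, chromosome 13), the least abundant of the 5 ligands, had 13.4 ± 2.42 and 13.2 ± 2.40 CPM, a log2 fold change of -0.02 with an interval from -0.33 to 0.30. Its exons share 226 bases with *Txndc5* on the opposite strand, an abundant gene with 73347 counts over all libraries, and the use of strand in the counting is not given in the sources used here.

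The 300 bases before the start of each gene's canonical transcript were searched for the letters CAAGTG on both strands, a core motif of HMX factors. They were also searched on both strands for TGGCGCC, which is a GC-rich element of SMAD binding. The HMX core was found before 1 of the 10 genes, *Bmp7*, at 204 bases before the start, and before 15.1% of the 21770 protein-coding genes. The SMAD element was found before 0 of the 10 and before 3.75% of all. For 5 of the 10 genes (*Bmp4*, *Bmp6*, *Bmper*, *Id1* and *Smad6*) another annotated transcript starts inside or upstream of the window, so these counts concern the canonical start only. A match is a description of letters, and its absence says nothing of a factor. The windows of *Bmp5* and *Bmp7* are shown because *Bmp5* had the lowest GC content of the 10 (40.7%, against a median of 52.3% over all windows) and *Bmp7* (63.3%) held the only match. They were read 5′ to 3′ on the strand of the gene from GRCm39 at chr9:75682338-75682637 (plus strand) and chr2:172782411-172782710 (minus strand), and capitals mark the HMX core.
Bmp5: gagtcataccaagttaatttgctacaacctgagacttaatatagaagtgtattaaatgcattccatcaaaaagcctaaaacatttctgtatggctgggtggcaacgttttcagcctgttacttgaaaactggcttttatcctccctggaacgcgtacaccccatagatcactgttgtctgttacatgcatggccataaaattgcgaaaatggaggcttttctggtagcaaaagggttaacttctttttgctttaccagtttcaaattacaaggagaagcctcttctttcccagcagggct
Bmp7: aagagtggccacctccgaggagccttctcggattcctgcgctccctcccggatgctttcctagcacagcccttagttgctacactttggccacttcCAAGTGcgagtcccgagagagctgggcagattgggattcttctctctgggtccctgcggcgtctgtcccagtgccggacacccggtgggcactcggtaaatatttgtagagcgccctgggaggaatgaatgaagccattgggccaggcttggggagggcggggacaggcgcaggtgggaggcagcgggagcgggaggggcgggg
No capitals stand in the *Bmp5* window, where neither sequence was found.

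The 3 antagonists were all higher in the mEC1dup/dup mean, by log2 fold changes of 0.18 to 0.23, and none passed the adjusted threshold. Most of the other antagonists and modulators of the pathway list did not share this direction. Of the 17 tested, 12 had log2 fold changes below 0 and 5 above, with a median of -0.08 (-0.0041 over all tested genes). After seeing the data, *Bmp1* and *Tll1*, proteases that release BMPs from chordin, and the enhancer *Kcp* were left out. Then 11 of 14 were below 0 and 3 above, with a median of -0.08. *Bmper* (ENSMUSG00000031963, chromosome 9 from 23134325 to 23396509, plus strand) encodes a secreted protein with chordin-like repeats that binds BMPs and can inhibit or promote their action. Its counts were 1281, 1461, 1351, 1099 and 1271 for WT replicates 1 to 5, against 1456, 1566, 1598, 1548 and 1470 for mEC1dup/dup replicates 1 to 5, which gave 72.4 ± 7.47 CPM and 83.9 ± 2.88 CPM (SD, n = 5 each). Of the mEC1dup/dup libraries, 4 of 5 lay above the highest WT library (replicate 2, 80.9 CPM), and replicate 5, at 79.6 CPM, lay just under it. The log2 fold change was 0.21 (SE 0.06, 95% interval 0.08 to 0.35, edgeR adjusted p = 0.0999), the lowest adjusted p of the 10 genes. DESeq2 gave an adjusted p of 0.0406 for *Bmper*, and edgeR with the replicate number as a block gave 0.22 (edgeR adjusted p = 0.0432). Without WT replicate 4, the lowest library at 60.9 CPM, the log2 fold change was 0.15 (edgeR adjusted p = 0.0793), and adding *Xist* to the fit as a covariate left 0.13 (edgeR adjusted p = 0.716).

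*Nog* (ENSMUSG00000048616, chromosome 11 from 89191464 to 89193158, minus strand) encodes noggin, which binds BMP ligands and blocks them from their receptors. It had 23.2, 26.3, 30.5, 21.9 and 26.9 CPM in WT replicates 1 to 5 and 24.7, 29.9, 33.7, 31.8 and 31.5 CPM in mEC1dup/dup replicates 1 to 5. WT replicate 3 lay above mEC1dup/dup replicates 1 and 2, so the groups overlapped, with 3 of 5 mEC1dup/dup libraries above the highest WT library. The log2 fold change was 0.23 (SE 0.10, 95% interval 0.02 to 0.44, edgeR adjusted p = 0.249).

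*Grem1* (ENSMUSG00000074934, chromosome 2 from 113576509 to 113589000, minus strand), which encodes gremlin, an antagonist of BMP2, BMP4 and BMP7, split the mEC1dup/dup libraries. Its level was 21.3, 24.7, 26.0, 21.9 and 23.8 CPM in WT replicates 1 to 5, and 29.5, 29.8, 28.8, 23.5 and 22.0 CPM in mEC1dup/dup replicates 1 to 5. The 3 highest libraries were the 3 with the most *Xist* (732 CPM or more), and mEC1dup/dup replicates 4 and 5, with 113 and 0 CPM of *Xist*, lay within the WT range. The log2 fold change was 0.18 (SE 0.09, edgeR adjusted p = 0.373). It changed sign to -0.10 both with *Xist* as a covariate and in the libraries without *Xist*. Both settings rest largely on mEC1dup/dup replicate 5, the lowest mEC1dup/dup library for *Grem1*, and are not separate checks. Among the WT libraries none had *Xist* above 0.277 CPM, so the level of *Grem1* in female WT pinna was not analysed here.

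**Figure D2:**
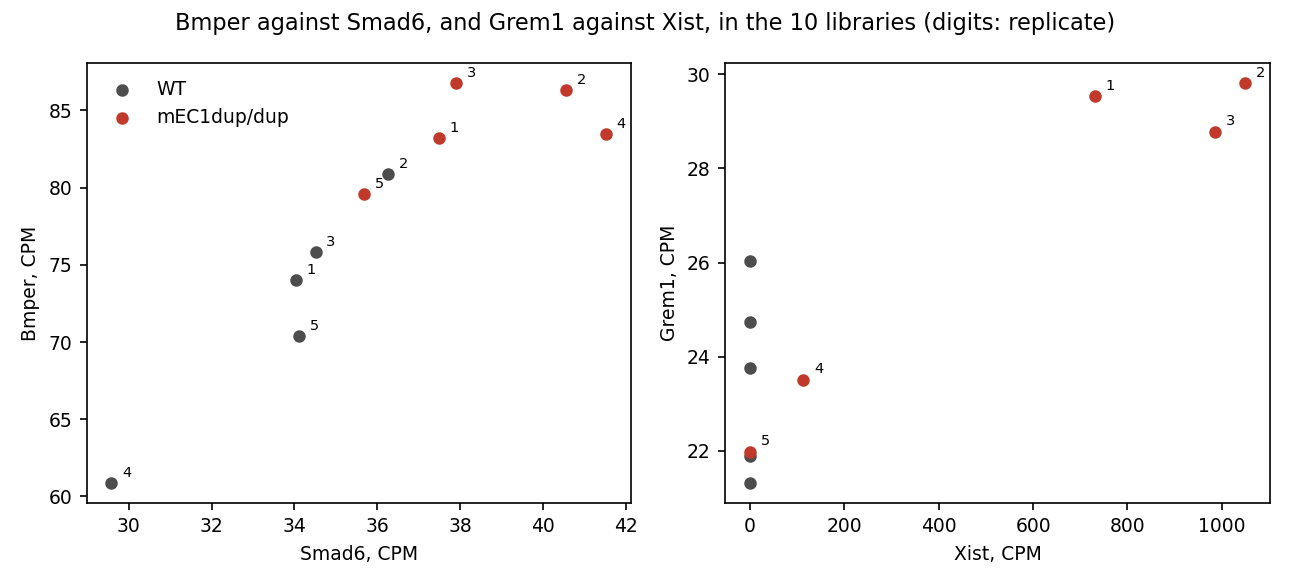
Left, *Bmper* against *Smad6*, and right, *Grem1* against *Xist*, in CPM after TMM scaling on both axes (only the axis of *Xist* includes 0), with a point for each library and digits for replicates (on the right for mEC1dup/dup only). *Bmper* and *Smad6* order the libraries alike with WT replicate 4 lowest in both, and *Grem1* exceeds the WT range only in the 3 libraries with 732 CPM of *Xist* or more.

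The targets differed from each other. *Smad6* (ENSMUSG00000036867, chromosome 9 from 63860341 to 63929793, minus strand), an inhibitory SMAD that is induced by BMP signalling and dampens it, had 34.0, 36.3, 34.5, 29.6 and 34.1 CPM in WT replicates 1 to 5 and 37.5, 40.6, 37.9, 41.5 and 35.7 CPM in mEC1dup/dup replicates 1 to 5. As for *Bmper*, 4 of 5 mEC1dup/dup libraries lay above the highest WT library and replicate 5 did not. The log2 fold change was 0.20 (SE 0.06, 95% interval 0.06 to 0.33, edgeR adjusted p = 0.123). It was 0.11 with *Xist* as a covariate (edgeR adjusted p = 0.763) and 0.08 in the libraries without *Xist*. *Id1* (ENSMUSG00000042745, chromosome 2), an inhibitor of basic helix-loop-helix factors and a direct BMP target, had 92.0 ± 5.60 CPM in WT and 90.7 ± 6.78 CPM in mEC1dup/dup (SD, n = 5 each). Its log2 fold change of -0.02 (95% interval -0.14 to 0.10, edgeR adjusted p = 0.9) spans a decrease of 9.46% to an increase of 7.39% in the fit on genotype alone. Values outside this span came from the fit with *Xist* as a covariate (-0.19, SE 0.07, edgeR adjusted p = 0.404) and from the libraries without *Xist* (-0.22, SE 0.09, edgeR adjusted p = 0.73). The latter is mEC1dup/dup replicate 5 alone against WT, and leaving out that library turned the genotype difference to 0.02, so these values cannot be told apart from the level of 1 library. The lowest *Id1* library was mEC1dup/dup replicate 5, at 79.1 CPM, where the other mEC1dup/dup libraries had at least 91.7 CPM.

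To compare genes with each other, CPM were divided by the length of the merged exons of each gene in kilobases. On this scale the order of WT means was *Id1* (51.8 ± 3.16 CPM per kb, SD, n = 5), *Bmp7* (20.02 ± 1.65), *Nog* (15.2 ± 1.98), *Bmper* (14.8 ± 1.53), *Bmp5* (12.8 ± 1.69), *Smad6* (9.50 ± 0.70), *Bmp4* (6.05 ± 0.28), *Grem1* (5.66 ± 0.47), *Bmp2* (5.07 ± 0.72) and *Bmp6* (3.41 ± 0.62), and the mEC1dup/dup means had the same order. *Id1* lay above *Bmp7*, and *Bmp7* above *Nog*, in all 10 libraries. The neighbours *Nog* and *Bmper*, *Bmper* and *Bmp5*, *Bmp4* and *Grem1*, *Grem1* and *Bmp2*, and *Bmp2* and *Bmp6* had overlapping WT ranges, and *Bmp4* exceeded *Grem1* in only 5 of 10 libraries. With the longest transcript as the length, *Bmper* passed *Nog* in both genotypes and *Smad6* passed *Bmp5* in mEC1dup/dup. The merged lengths include bases shared with genes on the opposite strand (46.6% for *Bmp5* with *Gm26903*, 22.5% for *Bmp4* with *Gm15222*). The effect of these shared bases on the levels was not tested.

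**Figure D3:**
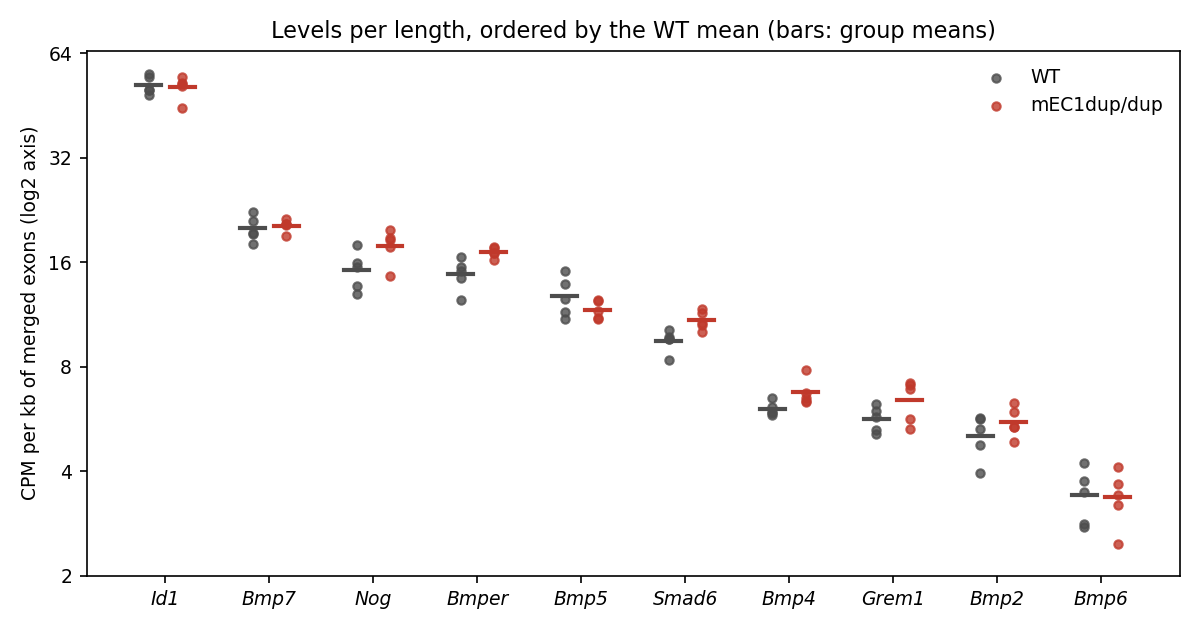
Levels per length (y axis, CPM per kb of merged exons on a log2 axis) of the 10 genes ordered by WT mean, with a point for each library and bars for the means of 5 libraries. *Id1* stands highest at 51.8 CPM per kb in WT and *Bmp6* lowest at 3.41, and the order of means is the same in mEC1dup/dup.

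Summed on this scale, the 5 ligands gave 47.4 ± 2.64 CPM per kb in WT and 47.7 ± 2.60 in mEC1dup/dup (SD, n = 5 each). *Bmp7* held 42.3% ± 1.92 of the ligand sum in WT and 42.7% ± 1.03 in mEC1dup/dup, and *Bmp5* held 27.0% ± 2.60 and 24.5% ± 1.09, with overlapping libraries for both. The 3 antagonists summed to 35.7 ± 3.54 CPM per kb in WT and 41.4 ± 2.23 in mEC1dup/dup, again with overlap. The ratio of the ligand to the antagonist sum was 1.47, 1.29, 1.23, 1.42 and 1.27 in WT replicates 1 to 5 and 1.13, 1.17, 1.09, 1.21 and 1.16 in mEC1dup/dup replicates 1 to 5. For this ratio the groups did not overlap, with means of 1.33 ± 0.10 and 1.15 ± 0.04. The separation rested on the choice of genes. Summed over the 11 ligands and 17 antagonists tested in both lists (without *Bmp1*, *Tll1* and *Kcp*), a setting added after seeing the data, the ratio was 0.50 ± 0.02 in WT and 0.52 ± 0.06 in mEC1dup/dup (SD, n = 5 each), and the groups overlapped. The ratio of the smaller set mixes 8 transcripts in whole tissue, and was given no test because the genes were chosen with earlier results known. The gap between the lowest WT library (replicate 3) and the highest mEC1dup/dup library (replicate 4) was narrower than the SD of either group.

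**Figure D4:**
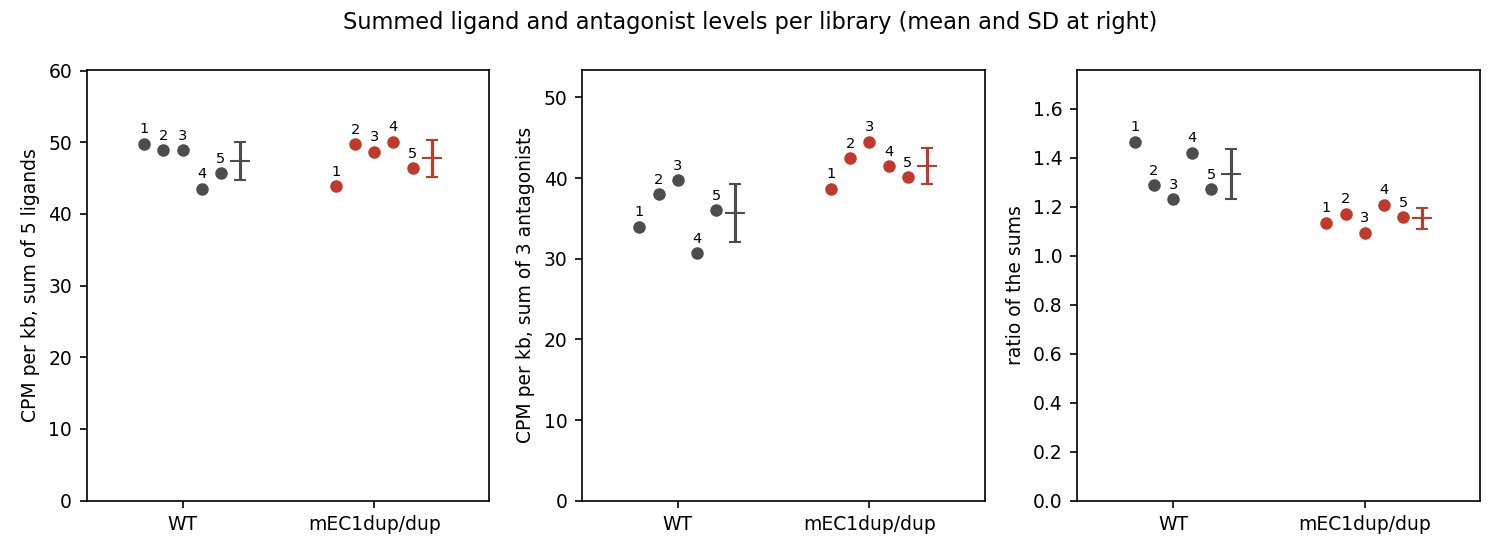
Sum of the 5 ligands (left), sum of the 3 antagonists (middle) and their ratio (right) in each library, in CPM per kb of merged exons for the sums, with axes from 0, points numbered by replicate and the mean and SD (n = 5) at the right of each group. The sums overlap between genotypes, while the ratio of these 8 genes runs from 1.23 to 1.47 in WT and from 1.09 to 1.21 in mEC1dup/dup, a separation absent when the 11 ligands and 17 antagonists of both lists are summed.

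Between libraries, *Bmper* and *Smad6* followed each other most closely of the 45 pairs of the 10 genes, by deviations of log2 CPM from the genotype means (Pearson's r = 0.83). Over the 10 libraries their r was 0.92 and Spearman's rho 0.94, and r was 0.91 without WT replicate 4 and mEC1dup/dup replicate 4, the libraries farthest from the median of *Smad6*. Both genes lie on chromosome 9 with *Bmp5*. *Bmper* and *Bmp2* (0.82) and *Bmp2* and *Nog* (0.77) came next by deviations, the median over the 45 pairs was 0.36, and the lowest value was that of *Bmp5* and *Bmp6* (-0.34). These values describe libraries that share scaling and depth, and no test was attached to them.

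The genes most like *Bmp5* over the 10 libraries, by Pearson's r of log2 CPM over all tested genes, were *Scnn1a* (0.95), *Jak2* (0.94), *Plekhg1* (0.93), *4930581F22Rik* (0.92) and *Plxnb1* (0.90). By deviations from the genotype means they were *Gm42929* (0.97), *Trim39* (0.95), *Scnn1a* (0.94), *Jak2* (0.93) and *Zfp934* (0.92). None of these 8 genes was called different between genotypes, and none belongs to the 10 BMP genes. With 10 libraries and 16426 genes searched, such values are a description of these libraries.

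The rest of the pathway was read from a list of 53 genes. Of these, 50 passed the filter and 0 were called in either direction by the edgeR test (2.64% of all tested genes were called), with a median log2 fold change of 0.0070. At an unadjusted p under 0.05, 6 were lower and 4 higher (10 of 50, against 9.08% lower and 7.1% higher over all tested genes), and no gene of the list had groups that did not overlap, against 5.07% of all tested genes. For 42 of the 50 the 95% interval lay within a 1.5-fold change in either direction. The ligand genes *Bmp8a*, *Bmp10* and *Gdf2* did not pass the filter on low counts, and *Bmp10* had 0 counts in every library.

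**Figure D5:**
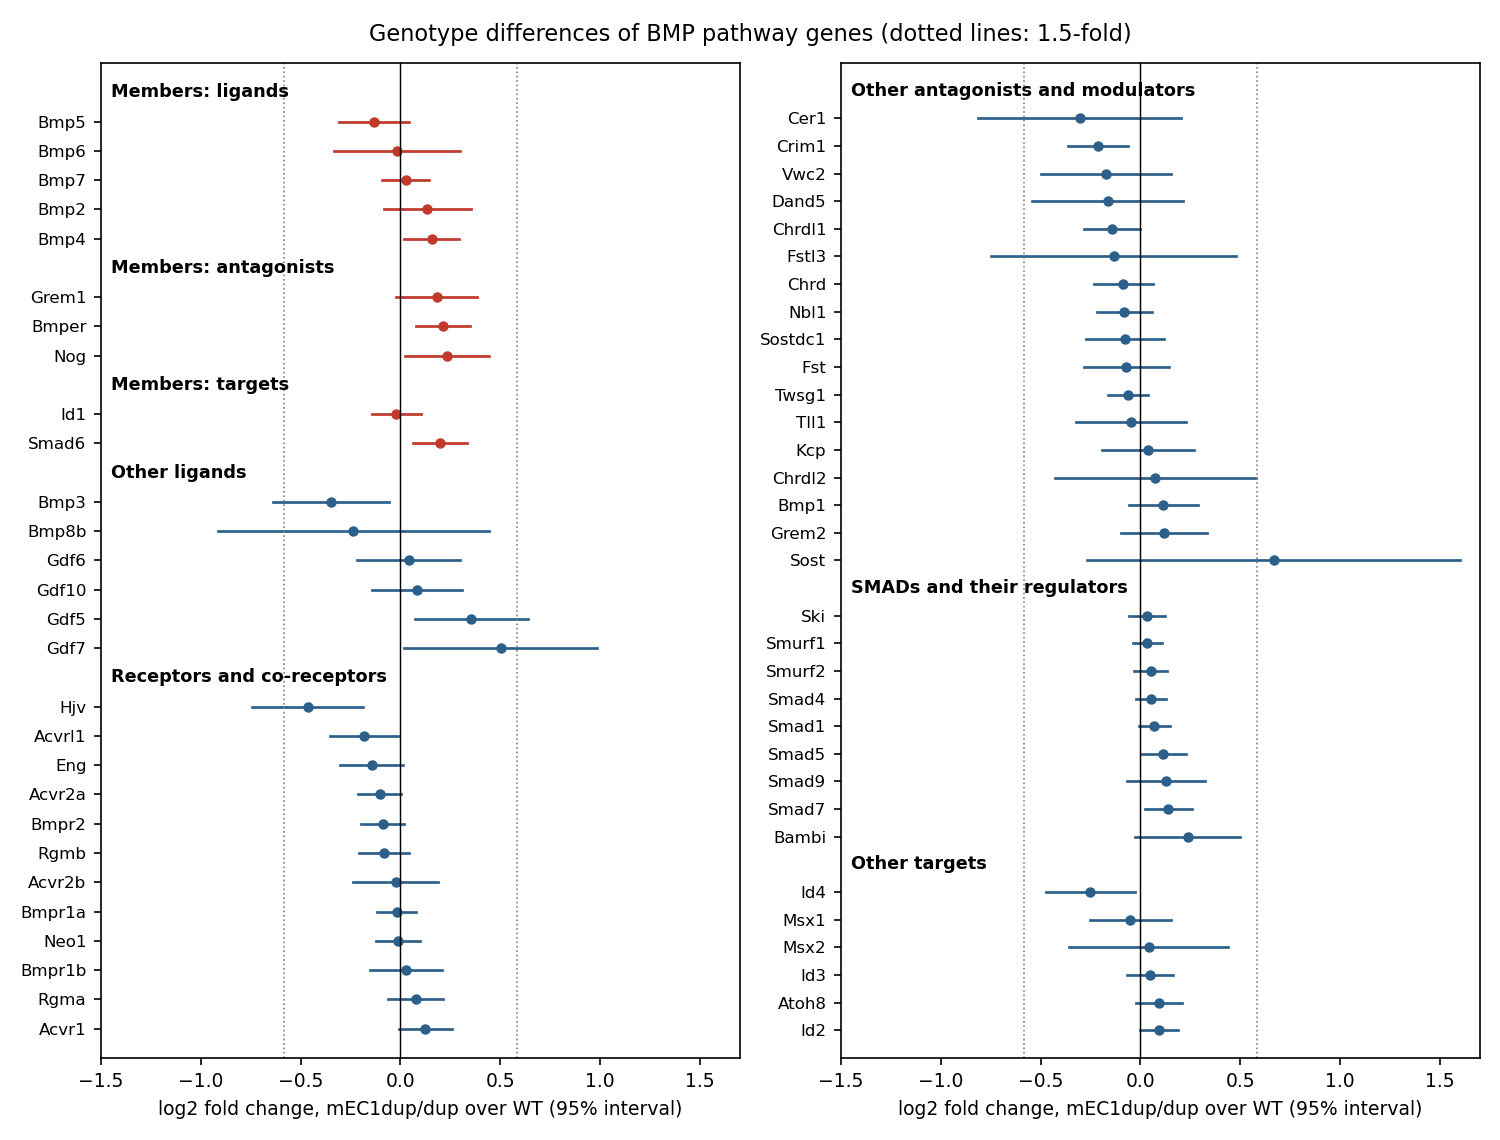
Log2 fold change of mEC1dup/dup over WT (x axis, points) with its 95% interval (lines) from the edgeR fit for the 10 genes (red, "Members") and the 50 tested genes of the pathway list (blue), grouped by role, with dotted lines at 1.5-fold. The intervals of all 10 red genes lie between the dotted lines, all 9 SMADs and their regulators have points to the right of 0, and the widest interval is that of *Sost*.

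By role, 6 of 9 other ligand genes were tested. *Gdf10*, the most abundant of them per length, had a log2 fold change of 0.08 (edgeR adjusted p = 0.765), and *Gdf7*, *Gdf5* and *Bmp3* had values of 0.50, 0.36 and -0.35 that did not pass the adjusted threshold (adjusted p of 0.287, 0.191 and 0.214 in that test). Of the 12 receptors and co-receptors, *Bmpr1a*, the type I receptor highest per length, had 237 ± 10.2 CPM in WT and 234 ± 13.7 CPM in mEC1dup/dup (SD, n = 5 each) and a log2 fold change of -0.02. The largest difference in this group was that of *Hjv*, which encodes hemojuvelin, a BMP co-receptor also made by striated muscle.

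*Hjv* was singled out after its values were seen. It had 32.0, 29.8, 31.0, 34.7 and 44.7 CPM in WT replicates 1 to 5 and 28.1, 24.5, 22.5, 19.6 and 30.1 CPM in mEC1dup/dup replicates 1 to 5. Only mEC1dup/dup replicate 5 reached the WT range, and the log2 fold change was -0.47 (SE 0.13, 95% interval -0.74 to -0.19, edgeR adjusted p = 0.075). DESeq2 called it (adjusted p = 0.0102), as did edgeR with the replicate number as a block (edgeR adjusted p = 0.0147). With *Xist* as a covariate the value was -0.27 (edgeR adjusted p = 0.713), and in the libraries without *Xist* it was -0.19. The 7 muscle markers, none of them called, summed to 1233 to 1943 CPM in WT and 990 to 1500 CPM in mEC1dup/dup. Their log2 fold changes went both ways: 0.09 and 0.12 for *Myod1* and *Myog*, and -0.22, -0.52, -0.15, -0.48 and -0.40 for *Actc1*, *Mylpf*, *Tnnc1*, *Tnni1* and *Des*. By this sum the highest WT library (replicate 5) and lowest mEC1dup/dup library (replicate 4) were also those of *Hjv*. The part of these markers in the value of *Hjv* was not tested.

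Among the 17 other antagonists and modulators, *Twsg1*, whose product binds BMPs together with chordin, was the most abundant per length and had a log2 fold change of -0.06 (edgeR adjusted p = 0.574). *Crim1*, a transmembrane protein that tethers BMPs, had 80.7 ± 9.45 CPM in WT and 69.6 ± 1.66 CPM in mEC1dup/dup (SD, n = 5 each) and a log2 fold change of -0.21 (edgeR adjusted p = 0.135). Without WT replicate 4 it was -0.28 and passed the threshold (edgeR adjusted p = 0.00495), as did the endothelial co-receptor *Eng* (-0.21, adjusted p = 0.0399). That fit called 476 genes lower and 179 higher of the 16593 tested. With all libraries *Eng* was at -0.14 (edgeR adjusted p = 0.368), and with *Xist* as a covariate at -0.08. Both were named for these calls after their values were seen.

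All 9 SMADs and regulators of SMADs had log2 fold changes above 0, between 0.03 and 0.24, and none was called. Of the 9, 2 had an unadjusted edgeR p under 0.05, against 16.2% of all tested genes. Their shared direction was not tested. *Ski*, a repressor of SMAD transcription and the most abundant of the 9 per length, was at 0.03 (edgeR adjusted p = 0.771). Of the 6 other targets, *Id3* was the most abundant per length and had a log2 fold change of 0.05 (edgeR adjusted p = 0.731), while *Id4* was at -0.25 (adjusted p = 0.242) and *Msx1* and *Msx2*, homeobox genes that respond to BMPs in many tissues, were at -0.05 and 0.04.

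Markers of the cell types in the tissue gave the setting of these values, where 1.81% of all tested genes were called lower and 0.834% higher. Of the 7 keratinocyte markers 3 were called lower (*Krt5*, *Krt14* and *Perp*), and the sum of the 7 was 841 to 1482 CPM in WT and 671 to 879 CPM in mEC1dup/dup. The markers not called were *Krt15*, *Cdh1* and *Trp63*, with log2 fold changes of -0.50, -0.45 and -0.35, and *Epcam*, with 0.04. Of the 5 tendon and perimysial markers 2 were called lower (*Tnmd* and *C1qtnf3*), with sums of 226 to 310 CPM and 193 to 228 CPM, while the log2 fold changes of *Scx* (0.24, edgeR adjusted p = 0.0758) and *Mkx* (0.20) were above 0. Of the 6 chondrocyte markers 1 was called lower (*Snorc*), with sums of 4556 to 7602 CPM and 2051 to 6040 CPM, the lowest being mEC1dup/dup replicate 1. The markers not called were *Acan*, *Matn1*, *Col2a1* and *Col9a1*, with log2 fold changes of -0.69, -0.67, -0.30 and -0.23, and *Sox9*, with 0.19. The median over the 6 was -0.49. Of the 7 mesenchymal markers 1 was called lower (*Lum*), with sums of 5774 to 9505 CPM and 6392 to 7131 CPM. Most of this sum was *Col1a1* (5606 CPM in the WT mean), and the 6 markers not called went both ways: *Pdgfra*, *Prrx1* and *Twist1* had log2 fold changes of 0.08, 0.07 and 0.15, and *Col1a1*, *Dcn* and *Twist2* of -0.35, -0.29 and -0.18, with a median of -0.18 over the 7. The endothelial sums (407 to 506 CPM against 423 to 477 CPM), glial sums (110 to 153 against 86.5 to 143), macrophage sums (91.2 to 108 against 90.4 to 109) and erythroid sums (36.6 to 59.8 against 42.4 to 85.1) overlapped, with no marker called. None of these markers was at 0 in any library, and their part in the values of the BMP genes was not tested.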

How the data were processed

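Per the methods and labels, the authors deposited raw counts per gene from featureCounts, made from paired-end reads after trimming (fastp) and alignment (STAR) to GRCm39. The labels name a NEBNext Ultra library kit and the methods a TruSeq kit; strand setting, annotation release and handling of multiply mapped reads are not given in the sources used here. Symbols, positions and merged exon lengths came from GENCODE vM39 (GRCm39), which matched 49355 of 53465 genes; unmatched genes held 0.111% of counts.

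Counts were filtered with filterByExpr, scaled by TMM and tested with edgeR 4.0.16 (quasi-likelihood, genotype only, Benjamini-Hochberg over all tested genes) in R 4.3.3. Standard errors are the log2 fold change divided by the square root of F, and 95% intervals use the t distribution of the fit. Correlations used log2 CPM with a prior count of 2. Alternatives used DESeq2 1.42.0 and limma 3.58.1, other scalings and filters, the replicate number as a block, *Xist* as a covariate, and each library left out. The genes and lists were chosen with earlier results of these data known. Named besides the 10 genes are *Hmx1*, genes of the pathway list that were called, did not overlap or led their role per length, and the 5 genes most like *Bmp5* by each measure; others named, such as *Hjv*, *Bmp3*, *Gdf5*, *Gdf7*, *Crim1*, *Eng*, *Id4*, *Msx1*, *Msx2* and the markers, were added after their values were seen. No library was a copy of another: within a genotype the chi-square of their counts was at least 2.56 per degree of freedom. Steps were tested on simulated data. Counts carry no molecular identifiers. Protein sequences were not used here.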

Additional observations from a re-analysis of the deposited data

Results flagged for a closer look

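*Bmp4* in mEC1dup/dup replicate 4 lay far from the other libraries of its genotype: it had 40.9 CPM where the other 4 had 33.2 to 35.2 CPM. The gap to the nearest library was 0.75 of the range of the group, above Dixon's 95% critical value of 0.71 for 5 values. Of the 36 groups of values examined this was the only one past that value, where chance gives about 1 in 20. Without this library the log2 fold change of *Bmp4* was 0.10, and it was not called with or without it. The same library held transcripts of both *Xist* (113 CPM) and Y-linked genes (163 CPM summed), and their part in the value was not tested.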

How the results depend on the processing

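The 10 genes were read under 20 other settings, and of the 200 log2 fold changes 189 kept their direction and side of the threshold. Among the 20, the setting with no threshold on average log2 CPM reused the main fit, so its values could not differ. With *Xist* as a covariate, 1 lower and 2 higher genes were called over all tested genes, so staying uncalled there says little. Leaving out each library in turn moved *Bmp6* between -0.099 and 0.076, *Bmp7* between -0.012 and 0.067, *Id1* between -0.047 and 0.025 and *Bmpr1a* between -0.045 and 0.0051, with a change of sign in each and no call. Over these leave-one-out fits alone *Bmp5* lay between -0.18 and -0.07 and *Bmper* between 0.15 and 0.26, *Gdf10* between 0.025 and 0.17, *Twsg1* between -0.091 and -0.031, *Ski* between 0.00065 and 0.051 and *Id3* between 0.0071 and 0.086. The *Xist* settings moved several genes further than this: as a covariate, *Xist* gave -0.22 for *Bmp5*, -0.19 for *Id1*, -0.12 for *Bmpr1a*, -0.12 for *Twsg1*, 0.08 for *Ski*, 0.13 for *Bmper* and 0.11 for *Smad6*, and the libraries without *Xist* gave -0.22, -0.22, -0.13, -0.12, 0.11, 0.14 and 0.08 for these and 0.08 for *Bmp4*, none called. *Grem1* reversed to -0.10 with *Xist* as a covariate and to -0.10 in the libraries without *Xist* (chosen after seeing the data, with a lone mEC1dup/dup library assumed to vary like WT), and the cause was not tested. *Bmper* was called at 0.21 by the DESeq2 Wald test and at 0.22 with the replicate number as a block, so that 1 of the 10 genes was called higher in each, against 0 in the edgeR fit. Of the pathway list 1 gene (*Hjv*) was called lower with no filter on low counts, 1 by DESeq2 and 1 with the replicate block. When a library was left out, 0 to 2 were called. The 2 were *Crim1* and *Eng* without WT replicate 4, where 476 of all tested genes were called lower and 179 higher. The cause of these moves was not tested. The ligand to antagonist ratio became 0.42 in WT and 0.43 in mEC1dup/dup, with overlapping groups, when all listed ligands and antagonists or modulators were summed, and 0.50 and 0.52, again overlapping, without *Bmp1*, *Tll1* and *Kcp*.

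Over all genes, 297 lower and 137 higher calls became 509 and 321 with DESeq2, 487 and 200 with the replicate block, 1 and 2 with *Xist* as a covariate, 0 and 0 in the libraries without *Xist*, and 120 to 476 and 34 to 179 when a library was left out. The paper describes its mouse replicates as siblings of separate litters, but no source used here ties a replicate number to a litter. The numbers were therefore not taken to pair the libraries. Deviations of same-numbered libraries correlated at -0.056 to 0.345 (mean 0.162, against -0.040 for other pairs), and 4 of 10 libraries correlated best with their own number. *Xist* and genotype overlap so far that a sex difference in the BMP genes can be separated from genotype only through mEC1dup/dup replicate 5 and in part replicate 4.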
